A study of Mus musculus with 6 samples.

Results

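The 10 genes described here encode the machinery by which cells enter the cell cycle from G1: the D-type cyclins Ccnd1, Ccnd2 and Ccnd3, their kinases Cdk4 and Cdk6, the inhibitors Cdkn1b, Cdkn2c and Cdkn2d, and the pocket proteins Rb1 and Rbl2. They were chosen by symbol, 10 of the 23420 genes in the count table, and all 10 passed the filter on low counts that left 12653 genes for testing. RNA was sequenced from LSK cells, the bone marrow fraction negative for lineage markers and positive for Sca-1 and c-Kit, which holds blood stem cells and multipotent progenitors, with 1 library per mouse. The mice were 3 bcat(ex3)osb animals (mutants below), whose osteoblasts had constitutively active β-catenin signalling, and 3 wild-type (WT) littermates. The transgene that directs the change to osteoblasts, the age of the mice and the sorting gates were not stated in the labels. The LSK cells themselves carry no treatment in the labels. Each library held between 15431235 and 19956774 counts. The library of mutant mouse 2 stood apart on the first principal component (50.8% of the variance), and both mouse 2 libraries were richer in short genes, so values without them are given where they matter. Mutant mice 1 and 2 were male by Xist and Y-linked counts and the other 4 mice were female.

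A mitogen raises the level of D-type cyclins, which bind CDK4 or CDK6. The active kinase phosphorylates the retinoblastoma protein and its relatives and so releases E2F transcription factors, which switch on the genes of DNA replication. Inhibitors of the INK4 family, which include the products of Cdkn2c and Cdkn2d, bind CDK4 and CDK6 and displace the cyclin, while p27, the product of Cdkn1b, binds cyclin-kinase complexes. In blood stem cells the balance of these proteins is known to govern the step from quiescence into division, and mouse stem cells lacking Cdkn2c are known to self-renew more.

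Promoter sequences are shown for the members whose values lay apart between genotypes, and for Cdk4, the most abundant member, a choice made after their values were seen. Each is the 250 bases before an annotated gene start, written 5′ to 3′ on the gene's strand, from RefSeq on GRCm38.p6, the assembly that mm10 names. The table holds 7 of the 10 members, without Ccnd1, Ccnd2 and Rb1. Capitals mark matches, on either strand, to a GC box (GGGCGG), an E-box (CACGTG), a TCF/LEF motif (CTTTGAT or CTTTGAA) or a FOXO motif (GTAAACA). No marked matches overlap one another. Ccnd3 has 2 windows, for its upstream and its downstream start. In the upstream window, chr17:47504801-47505050 (+ strand), there are 2 GC boxes and 1 FOXO motif.
Ccnd3 upstream start: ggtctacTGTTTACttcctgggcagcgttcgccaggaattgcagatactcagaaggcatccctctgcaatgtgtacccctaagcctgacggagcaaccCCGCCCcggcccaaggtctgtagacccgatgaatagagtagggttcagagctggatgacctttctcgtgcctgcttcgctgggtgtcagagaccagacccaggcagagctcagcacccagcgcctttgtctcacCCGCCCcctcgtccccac
In the downstream window, chr17:47593217-47593466 (+ strand), there is 1 GC box.
Ccnd3 downstream start: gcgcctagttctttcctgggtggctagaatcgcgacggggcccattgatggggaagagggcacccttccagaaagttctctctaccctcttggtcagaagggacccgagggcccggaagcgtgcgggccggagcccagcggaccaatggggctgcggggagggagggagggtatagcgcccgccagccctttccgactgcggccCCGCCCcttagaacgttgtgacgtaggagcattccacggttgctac
For Cdk6, the window chr5:3343643-3343892 (+ strand) holds 1 E-box, the site bound by MYC and its relatives. This window lies inside the full Cdk6 span, which begins at 3341004, and so precedes a start downstream of that position.
Cdk6: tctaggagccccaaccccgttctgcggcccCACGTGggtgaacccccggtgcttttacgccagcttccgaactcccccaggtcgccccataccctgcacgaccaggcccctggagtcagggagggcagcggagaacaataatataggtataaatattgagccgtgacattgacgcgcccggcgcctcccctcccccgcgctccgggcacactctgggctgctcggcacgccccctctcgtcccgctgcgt
For Cdk4, the window chr10:127063285-127063534 (+ strand) holds 4 E-boxes, 1 GC box and 1 TCF/LEF motif.
Cdk4: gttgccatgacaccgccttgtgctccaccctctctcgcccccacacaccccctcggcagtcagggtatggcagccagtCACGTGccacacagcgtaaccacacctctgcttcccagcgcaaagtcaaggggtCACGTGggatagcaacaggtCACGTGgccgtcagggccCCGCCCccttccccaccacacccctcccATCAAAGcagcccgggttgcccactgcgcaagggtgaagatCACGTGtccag
Of 32851 promoter windows of this length in the table, 32.7% held a GC box, 6.02% an E-box, 7.48% a TCF/LEF motif and 3.17% a FOXO motif, and 0.0213% held 4 or more E-boxes, as the Cdk4 window does. An E2F motif (TTTCCCGC, TTTGGCGC, TTTCGCGC or TTTGCCGC) and a cAMP response element (TGACGTCA) were also searched. Neither matched in any of the 9 windows of the 7 members, against 1.86% and 1.55% of all windows. A match describes letters and is not evidence of binding.

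The order of the members' levels was similar in both genotypes, with Cdk4 far above the rest. On the deposited FPKM, which are divided by gene length, Cdk4 averaged 654 ± 65.3 in mutants and 670 ± 84.6 in WT mice (SD, n = 3 each). Ccnd3 came next, with 119 ± 38.9 FPKM in mutants and 233 ± 50.3 FPKM in WT mice, then Ccnd2 with 90.3 ± 12.7 FPKM in mutants and 72.7 ± 4.61 FPKM in WT mice. In mutant mice the ranges of Ccnd3 and Ccnd2 overlapped, whereas in WT mice every Ccnd3 value, from 202 FPKM, lay above every Ccnd2 value, up to 77.4 FPKM. Cdkn2d averaged 57.2 ± 6.29 FPKM in mutants and 69.2 ± 17.2 FPKM in WT mice, and Cdk6 50.6 ± 8.74 FPKM in mutants and 35.2 ± 10.6 FPKM in WT mice. Cdkn2d and Cdk6 overlapped in the mutant mice and lay apart in the WT mice. The neighbours Ccnd2 and Cdkn2d, and likewise Cdk6 and Rbl2, lay apart in the mutant mice and overlapped in the WT mice. Rbl2, Ccnd1, Cdkn1b, Cdkn2c and Rb1 had means between 3.17 and 17.6 FPKM in mutants and between 5.79 and 22.3 FPKM in WT mice, and among these 5 each overlapped the next in the order in both genotypes. These levels depend on the gene lengths the authors used. The deposited length of Cdk6 was 2470 bases, 17.7% of the merged exon length in GENCODE M21, and that of Ccnd3 was 2260 bases, or 25.8%, against 80.6% for Ccnd1.

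No member passed the threshold. By edgeR's quasi-likelihood test with Benjamini-Hochberg adjustment over all 12653 genes, 0 members were higher and 0 lower in the mutants at an adjusted p under 0.05, where 0% of all genes were called higher and 0% lower. With an unadjusted p under 0.05, 1 member (Ccnd1) lay higher and 1 (Ccnd3) lay lower, against 3.43% of all genes higher and 3.13% lower. DESeq2 called 0 members at its adjusted p, where 0.798% of all genes were called higher and 0.537% lower. By its unadjusted p under 0.05, 3 members (Ccnd1, Ccnd2 and Cdk6) lay higher and 1 (Ccnd3) lower, against 4.69% of all genes higher and 3.84% lower. On CPM, the 3 mutants lay wholly above the 3 WT mice for 2 members, Ccnd2 and Cdk6, where 6.89% of all genes tested did so, and wholly below them for 1, Ccnd3, where 7.67% did. On the deposited FPKM, 1 member (Ccnd2) lay wholly above, against 4.99% of all genes, and 1 (Ccnd3) wholly below, against 9.35%, while Cdk6 overlapped. The smallest p that an exact permutation test can give with 3 mice per group is 0.10, so none is given per gene. The 10 log2 fold changes, mutant over WT, had a median of -0.07, with 5 positive and 5 negative, beside a median of 0.00 over all genes tested. They ran from -0.90 for Ccnd3 to 1.09 for Ccnd1. The labels give no batch and no pairing of the littermates, and p-values measure only the spread between these 6 libraries.

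**Figure D1:**
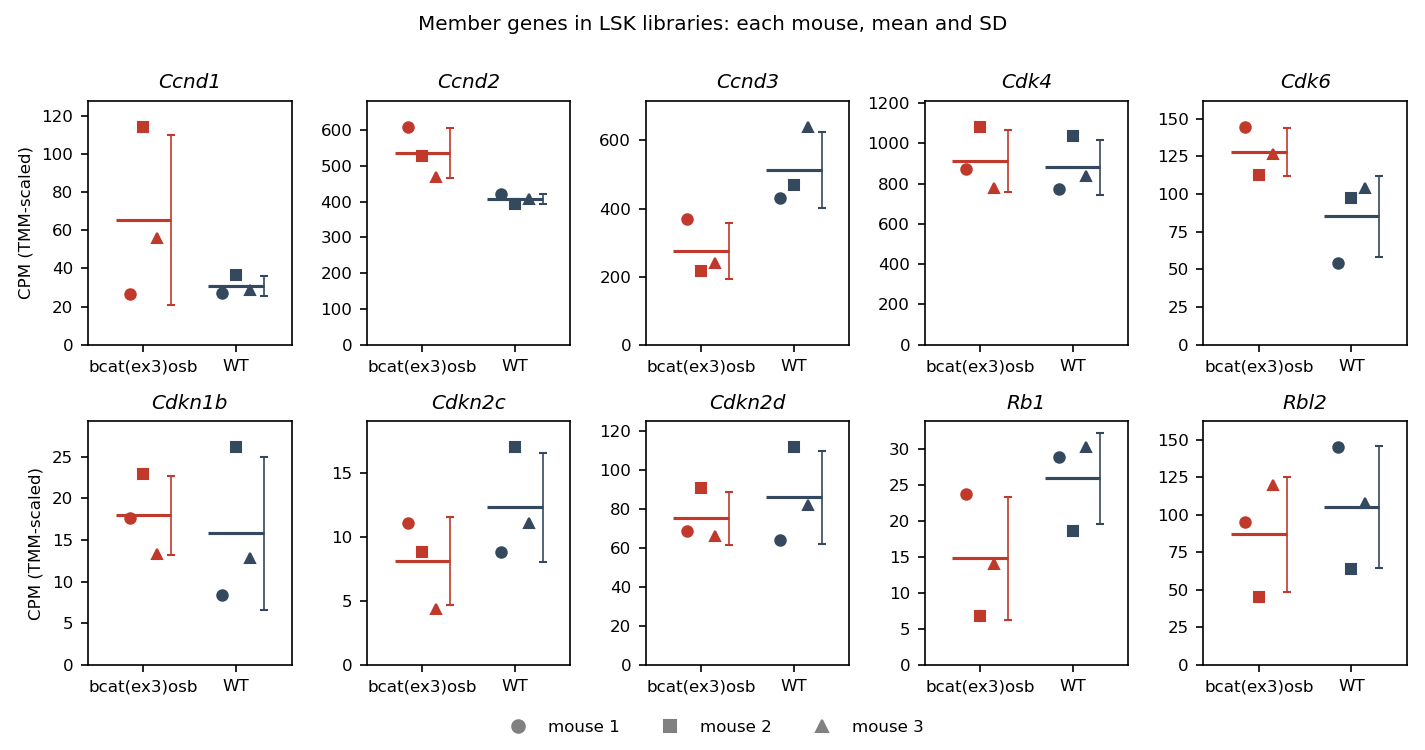
TMM-scaled CPM (y axes, from 0) of the 10 members in each bcat(ex3)osb and WT mouse (symbols), with the group mean (line) and SD (bar, n = 3). Ccnd2 and Cdk6 of every mutant mouse lay above every WT mouse and Ccnd3 below, and the groups overlapped for the other 7 members.

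Among the D-type cyclins, Ccnd3 was the member with the smallest unadjusted p. Cyclin D3 is the D-type cyclin known to be needed for the expansion of immature T cells and pre-B cells in the mouse. Ccnd3 (chromosome 17, 47505051 to 47599689, + strand) was at 368, 216 and 240 CPM in mutants 1, 2 and 3, and at 432, 470 and 639 CPM in WT mice 1, 2 and 3. CPM are counts scaled by the TMM-adjusted size of each library. The groups did not overlap, and mutant mouse 1 lay closest to the WT mice. By edgeR the log2 fold change was -0.90 ± 0.27 (SE), with a 95% interval from -1.51 to -0.29, and the edgeR adjusted p was 0.509. On the other strand, 361 bases of Ccnd3 exons overlap Bysl, and a processed pseudogene, Ccnd3-ps, is annotated on chromosome 4, so reads they share are uncertain. In bulk RNA, fewer cells of a type and less RNA per cell cannot be told apart.

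Ccnd2, which is known to be induced by growth factor and cytokine signals and by MYC, was at 609, 529 and 469 CPM in mutants 1, 2 and 3. In WT mice 1, 2 and 3 it was at 423, 395 and 407 CPM. The lowest mutant value lay above the highest WT value, and the WT mice were close to each other. The log2 fold change was 0.39 ± 0.18 (SE; 95% interval -0.02 to 0.80), with an edgeR adjusted p of 0.774. It was 0.18 in the 4 female mice, a comparison that rests on mutant mouse 3 alone for the genotype. Ccnd2 lies on chromosome 6 from 127125162 to 127152188 on the - strand, and its exons overlap 9330179D12Rik (368 bases) and Gm43126 (372 bases) on the other strand.

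Ccnd1, the cyclin best known as a target of β-catenin in epithelial cells, was the member with the largest spread relative to its mean among the mutants. It was at 26.5, 114 and 55.9 CPM in mutants 1, 2 and 3, and at 27.4, 36.6 and 28.5 CPM in WT mice 1, 2 and 3. Mutants 2 and 3 lay above all WT mice, and mutant mouse 1 below them, so the groups overlapped. The log2 fold change was 1.09 ± 0.47 (SE; 95% interval 0.01 to 2.17), with an edgeR adjusted p of 0.760. Without mutant mouse 2 it was 0.42. Ccnd1 lies on chromosome 7 from 144929931 to 144939831 on the - strand, and 1100 bases of its exons overlap LTO1 on the other strand.

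The shares that Ccnd2 and Ccnd3 took among the D-type cyclins lay apart between genotypes. As a share of the summed FPKM of the 3 genes, Ccnd3 made up 59.1%, 43.9% and 52.5% in mutants 1, 2 and 3, and 70.3%, 72.7% and 78.4% in WT mice 1, 2 and 3. Every mutant share lay below every WT share. Ccnd2 made up 38.3%, 42.2% and 40.2% in the mutants, and 27%, 23.9% and 19.6% in WT mice. Here every mutant share lay above every WT share, and the mutant shares were within a few percentage points of each other. All shares are parts of the same sum, so a lower Ccnd3 share raises the rest. The shares and the ratio below are therefore not separate observations. Ccnd1 made up 2.54%, 13.8% and 7.29% in the mutants, and 2.66%, 3.37% and 2.08% in WT mice, so that the groups overlapped through mutant mouse 1. The ratio of Ccnd2 to Ccnd3 averaged 0.791 ± 0.158 in mutants and 0.321 ± 0.0675 in WT mice (SD, n = 3 each). The summed level was 274, 196 and 207 FPKM in mutants 1, 2 and 3, and 287, 285 and 372 FPKM in WT mice 1, 2 and 3. Mutant mouse 1 lay close to WT mice 1 and 2 in this sum, and the groups did not overlap on FPKM. On CPM, which is not divided by length, the sum was 1003, 859 and 764 in mutants 1, 2 and 3, and 882, 901 and 1075 in WT mice 1, 2 and 3. There the groups overlapped, with mutant mouse 1 above WT mice 1 and 2. The shares of Ccnd2 and Ccnd3 lay apart on CPM as well. There Ccnd3 averaged 31.0% in mutants and 53.5% in WT mice, and Ccnd2 averaged 61.2% in mutants and 43.2% in WT mice. Which cyclin led in the mutants thus depended on the division by length. No test was made on shares or sums over members. Without mouse 2 of each group, the mean share of Ccnd3 was 55.8% in mutants and 74.4% in WT mice.

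**Figure D2:**
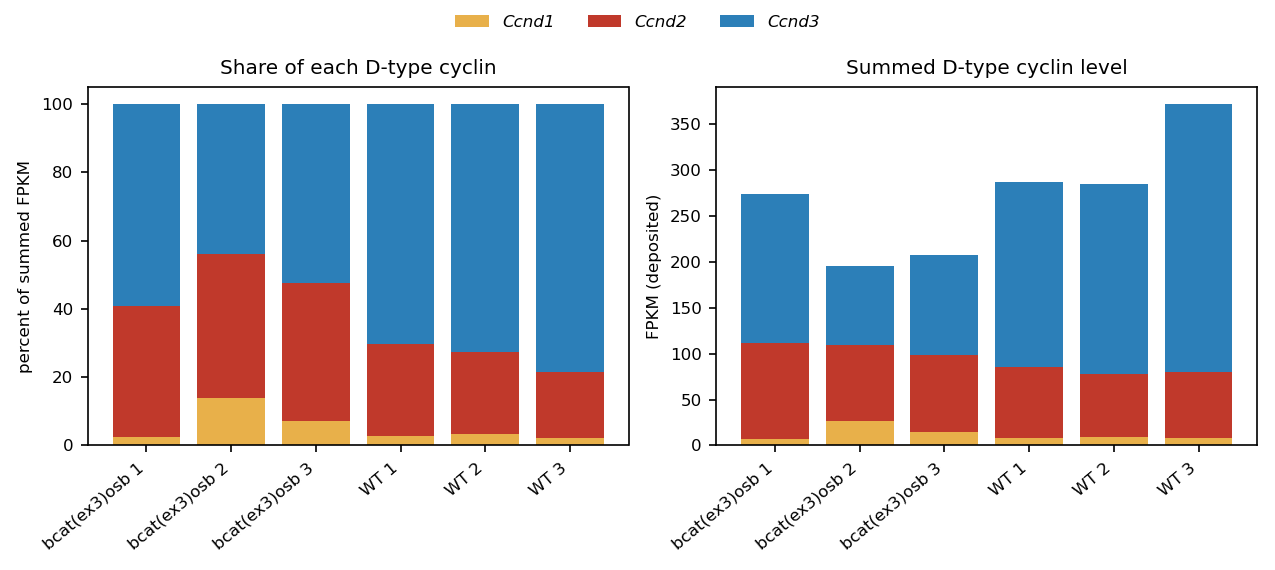
Share of each D-type cyclin in their summed FPKM (left, percent) and the summed FPKM itself (right) in each bcat(ex3)osb and WT mouse (bars). Ccnd3 held between 43.9% and 59.1% in the mutants and between 70.3% and 78.4% in WT mice.

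Summed markers of several other cell types also lay apart by genotype. The summed level of 9 B cell markers was 602, 96.6 and 73.3 CPM in mutants 1, 2 and 3, and 615, 988 and 1088 CPM in WT mice 1, 2 and 3. Singly, 3 of the 9 lay wholly below the WT mice and 6 overlapped. None of the 9 was at 0 in every library, although Ebf1 was at 0.0645 and 0.665 CPM in mutants 2 and 3. Mutant mouse 1, in which the B cell sum was close to that of WT mouse 1, also had the Ccnd3 value closest to the WT mice. Mutant mouse 3 had the lowest B cell sum, but its Ccnd3, at 240 CPM, lay above that of mutant mouse 2, at 216 CPM. The summed level of 7 granulocyte-monocyte markers was 8084, 11410 and 6286 CPM in the mutants and 1258, 3046 and 3147 CPM in WT mice, and all 7 lay wholly above singly. The summed level of 10 LSK markers was between 3386 and 4106 CPM in mutants and between 3295 and 4890 CPM in WT mice, in overlapping ranges, and 9 of the 10 genes overlapped singly. The exception was Ly6a, which encodes Sca-1, one of the proteins that define LSK cells. Ly6a was at 81.5, 65.9 and 75.7 CPM in mutants 1, 2 and 3, and at 148, 162 and 156 CPM in WT mice 1, 2 and 3. Its log2 fold change was -1.06 ± 0.18 (SE), with an edgeR adjusted p of 0.312. Kit was present in every library, between 345 and 725 CPM in mutants and between 323 and 1002 CPM in WT mice. Summed over 5 measured genes, macrophage markers came to between 4.74 and 33.6 CPM in mutants and between 41.4 and 73.3 CPM in WT mice, and all 5 lay wholly below singly. The sum of 4 megakaryocyte markers ran from 61.2 to 162 CPM in mutants and from 42.7 to 58.1 CPM in WT mice. Of these 4 only Itga2b lay apart, at 45.7 to 126 CPM in mutants and 20.7 to 33.7 CPM in WT mice, while Pf4, Gp9 and Vwf overlapped. T cell markers were at most 3.33 CPM in sum in mutants and 4.03 CPM in WT mice. No marker passed an edgeR adjusted p of 0.05. The sum of 7 osteoblast and stroma markers ran from 90.3 to 148 CPM in mutants and from 86.6 to 111 CPM in WT mice. Most of it was Runx2, at 88.4 to 147 CPM in mutants and 74.8 to 108 CPM in WT mice. Cxcl12 reached 7.05 CPM in mutants and 7.86 CPM in WT mice. Col1a2 reached 1.99 CPM in mutants and 2.57 CPM in WT mice, and lay wholly below in the mutants. Bglap and Col1a1, defining transcripts of osteoblasts, were below 1 CPM in every library, as were Sp7 and Lepr. The part of these cells in the cyclin values was not tested.

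Of the kinases, Cdk4 overlapped between the genotypes on both scales, and Cdk6 lay apart on CPM but overlapped on FPKM. Cdk4 (chromosome 10, 127063535 to 127067288, + strand), the kinase shared by most proliferating cells, was at 872, 1081 and 781 CPM in mutants 1, 2 and 3, and at 771, 1034 and 836 CPM in WT mice 1, 2 and 3. The groups overlapped throughout, and mouse 2 was the highest of each. By edgeR the log2 fold change was 0.05 ± 0.21 (SE), with a 95% interval from -0.43 to 0.53. The edgeR adjusted p was 0.979. On the other strand, 641 bases of Cdk4 exons overlap Tspan31, so its counts are uncertain if strand was not used in counting, and the same holds for the other overlaps named here.

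Cdk6 (chromosome 5, 3341004 to 3531008, + strand), the kinase whose level is known to set how readily human blood stem cells leave quiescence, was at 144, 112 and 127 CPM in mutants 1, 2 and 3. In WT mice 1, 2 and 3 it was at 54.4, 97.1 and 104 CPM. The groups did not overlap on CPM, though mutant mouse 2 and WT mouse 3 lay close together and WT mouse 1 stood low. On FPKM mutant mouse 2, at 41.0, lay below WT mouse 3, at 43.3. The log2 fold change was 0.59 ± 0.27 (SE; 95% interval -0.03 to 1.21), with an edgeR adjusted p of 0.774, and it was 0.35 without WT mouse 1. On FPKM, Cdk6 made up 8.27%, 5.36% and 8.13% of the summed Cdk4 and Cdk6 level in the mutants, and 3.70%, 4.87% and 6.34% in WT mice. These shares overlapped, because mutant mouse 2 lay below WT mouse 3. The sum of both kinases averaged 705 ± 59.0 FPKM in mutants and 705 ± 90.5 FPKM in WT mice (SD, n = 3 each). Cdk6 exons overlap Gm17590 (368 bases) on the other strand.

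For none of the 3 inhibitors did the groups separate. Cdkn2d, an INK4 gene and the most abundant of them, was at 68.6, 90.8 and 66.3 CPM in mutants 1, 2 and 3 and at 64.4, 112 and 82.1 CPM in WT mice 1, 2 and 3. Mouse 2 was again the highest in each genotype. For Cdkn2d the log2 fold change was -0.19 ± 0.25 (SE; 95% interval -0.77 to 0.38). Cdkn2c, the INK4 gene that restrains stem cell self-renewal in the mouse, was at 11.1, 8.84 and 4.32 CPM in the mutants and at 8.78, 17.0 and 11.1 CPM in WT mice. Mutant mouse 3 stood low, and the log2 fold change was -0.60 ± 0.43 (SE; 95% interval -1.60 to 0.39). It was -0.30 without mutant mouse 3, -0.30 without WT mouse 2 and -1.52 in the 4 female mice. In that last comparison mutant mouse 3 was the only mutant. Cdkn1b, which encodes p27, was at 17.6, 22.9 and 13.4 CPM in the mutants and at 8.34, 26.1 and 12.9 CPM in WT mice. The WT mice spanned the mutant range, and the log2 fold change was 0.19 ± 0.44 (SE; 95% interval -0.82 to 1.19). Cdkn2d lies on chromosome 9 from 21288459 to 21291421 (- strand), Cdkn2c on chromosome 4 from 109660876 to 109666756 (- strand) and Cdkn1b on chromosome 6 from 134920401 to 134925525 (+ strand). The edgeR adjusted p was 0.920 for Cdkn2d, 0.876 for Cdkn2c and 0.958 for Cdkn1b.

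Cdkn2d held most of the inhibitor level in both genotypes. It made up 80.2 ± 4.48% of their summed FPKM in mutants and 79.8 ± 2.44% in WT mice (SD, n = 3 each). The summed inhibitors stood to the summed Cdk4 and Cdk6 as 0.101, 0.105 and 0.0976 in mutants 1, 2 and 3, and as 0.104, 0.141 and 0.121 in WT mice 1, 2 and 3. Mutant mouse 2 lay just above WT mouse 1, so the groups overlapped. The other INK4 genes, Cdkn2a and Cdkn2b, had 0 counts in all 6 libraries. A count of 0 allows up to 3 counts per library, that is between 0.145 and 0.195 CPM.

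The pocket proteins, the substrates of the kinases, lay lower on average in the mutants but with wide spread. Rb1 (chromosome 14, 73192858 to 73325951, - strand), which encodes the retinoblastoma protein, was at 23.7, 6.77 and 13.97 CPM in mutants 1, 2 and 3, and at 28.9, 18.7 and 30.3 CPM in WT mice 1, 2 and 3. Mutant mouse 1 lay above WT mouse 2, so the groups overlapped, and mouse 2 was the lowest of each genotype. The log2 fold change was -0.81 ± 0.44 (SE; 95% interval -1.82 to 0.21), with an edgeR adjusted p of 0.813. It was -0.46 without mutant mouse 2 and -1.33 without mutant mouse 1. Rbl2 (chromosome 8, 91070057 to 91123844, + strand), which encodes p130, the pocket protein that represses cell cycle genes in resting cells, was at 95.3, 45.3 and 120 CPM in the mutants and at 145, 63.7 and 108 CPM in WT mice. Mouse 2 was again the lowest of each genotype, and the log2 fold change was -0.28 ± 0.40 (SE; 95% interval -1.21 to 0.65). Rb1 exons overlap Lpar6 and Rcbtb2, and Rbl2 exons overlap Aktip (693 bases) and Gm45464 (892 bases), each on the other strand.

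Mouse 2 of each genotype stood apart in the share of short genes. The slope of a gene's deviation in log2 CPM on its length was -1.11 log2 units per 10-fold length in mutant mouse 2 and -0.56 in WT mouse 2. It was between 0.25 and 0.32 in the other mutant mice and between 0.37 and 0.73 in the other WT mice. The members did not all follow their length. Rb1 (4625 bases) and Rbl2 (4888 bases) were lowest in mouse 2 of each genotype. Cdk4 (1346 bases), Cdkn2d (1270 bases), Cdkn1b (2405 bases) and Ccnd1 (3796 bases) were highest there. The longest member, Ccnd2 (5771 bases), was lowest in mouse 2 among WT mice but not among mutants, and the shortest, Cdkn2c (1106 bases), was highest in mouse 2 among WT mice but not among mutants. With the length trend removed, the log2 fold change was 1.32 for Ccnd1, 0.61 for Ccnd2, -0.83 for Ccnd3, 0.67 for Cdk6 and -0.69 for Rb1, and 0 members passed an edgeR adjusted p of 0.05. Without mouse 2 of each genotype, Ccnd2, Cdk6 and Cdkn1b lay above the WT mice and Ccnd3 and Rb1 below them without overlap, where 23.0% and 22.2% of all genes did so. In the 4 female mice the log2 fold change was -1.12 for Ccnd3, 0.56 for Cdk6 and 0.84 for Ccnd1. Mutant mouse 3 was the only mutant among these 4.

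**Figure D3:**
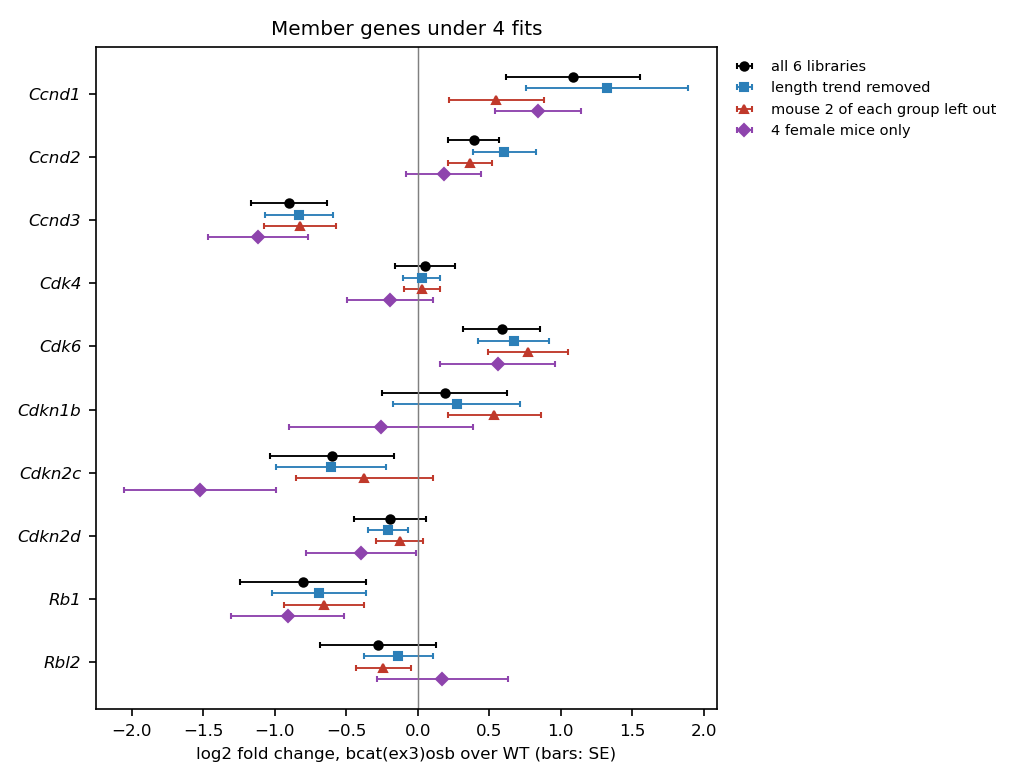
Log2 fold change, bcat(ex3)osb over WT, of each member (points) with its SE (bars) by edgeR in 4 fits. Ccnd1, Ccnd2, Ccnd3, Cdk6, Cdkn2c, Cdkn2d and Rb1 kept their sign in all 4. Cdk4, Cdkn1b and Rbl2 lay on the other side of 0 in the 4 female mice. That fit rests on mutant mouse 3 alone for the genotype.

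In the fit reported, the medians of the other pathway lists lay close to 0, with single genes farther out. Of 28 other G1/S regulators, 26 were tested, with 16 positive and 10 negative log2 fold changes and a median of 0.06. None passed an edgeR adjusted p of 0.05, and 0 were higher and 1 was lower with an unadjusted p under 0.05. That gene was E2f2, an activating E2F, at 46.2, 21.5 and 33.5 CPM in mutants 1, 2 and 3 and at 49.6, 51.2 and 67.4 CPM in WT mice 1, 2 and 3. Its groups did not overlap on CPM, and its log2 fold change was -0.73 ± 0.30 (SE). Of the 26 tested, 4, E2f8 among them, lay wholly above the WT mice, where 6.89% of all genes did. Wholly below lay 2, E2f2 and Rbl1, where 7.67% of all genes did. E2f8, a repressing E2F, had a log2 fold change of 0.34 ± 0.18, Rbl1, the third pocket protein, -0.31 ± 0.19, and Cdkn1a, the p53-induced inhibitor p21, 0.90 ± 0.53. Cdkn1a was at 81.0, 85.8 and 24.5 CPM in the mutants and at 16.1, 46.6 and 39.5 CPM in WT mice, so the groups overlapped. The E-type cyclins and their kinase, named here after their values were seen, had log2 fold changes of 0.23 ± 0.22 for Ccne1, 0.06 ± 0.19 for Ccne2 and 0.02 ± 0.17 for Cdk2.

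Genes that act in the turnover of D-type cyclins and of p27 had a median log2 fold change of 0.08 over 15 tested, 10 positive and 5 negative. None passed an edgeR adjusted p of 0.05, and 0 had an unadjusted p under 0.05. The 4 with the smallest unadjusted p were the F-box genes Fbxo4 (0.31 ± 0.20, SE) and Fbxo31 (0.31 ± 0.20), Skp2, which marks p27 for destruction (-0.27 ± 0.25), and Ubac1 (0.15 ± 0.17). The 30 E2F target genes of DNA replication had a median of 0.02, 16 positive and 14 negative, with 0 called and 0 at an unadjusted p under 0.05. Among them Pola1, a DNA polymerase subunit, had -0.56 ± 0.32, Cdt1, a licensing factor, 0.28 ± 0.18, Gins1 0.29 ± 0.28 and Mcm7 0.21 ± 0.22. On log2(FPKM + 1) the medians of other G1/S regulators (-0.02) and E2F targets (-0.06) changed sign, and that of turnover genes stayed positive (0.0043), beside a median of -0.06 over all genes. Without mutant mouse 1 the median was -0.03 for turnover genes and -0.04 for E2F targets. With the length trend removed the medians were higher, beside 0.089 over all genes. They were 0.189 for other G1/S regulators (18 of 26 positive), 0.198 for turnover genes (14 of 15) and 0.135 for E2F targets (22 of 30).

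**Figure D4:**
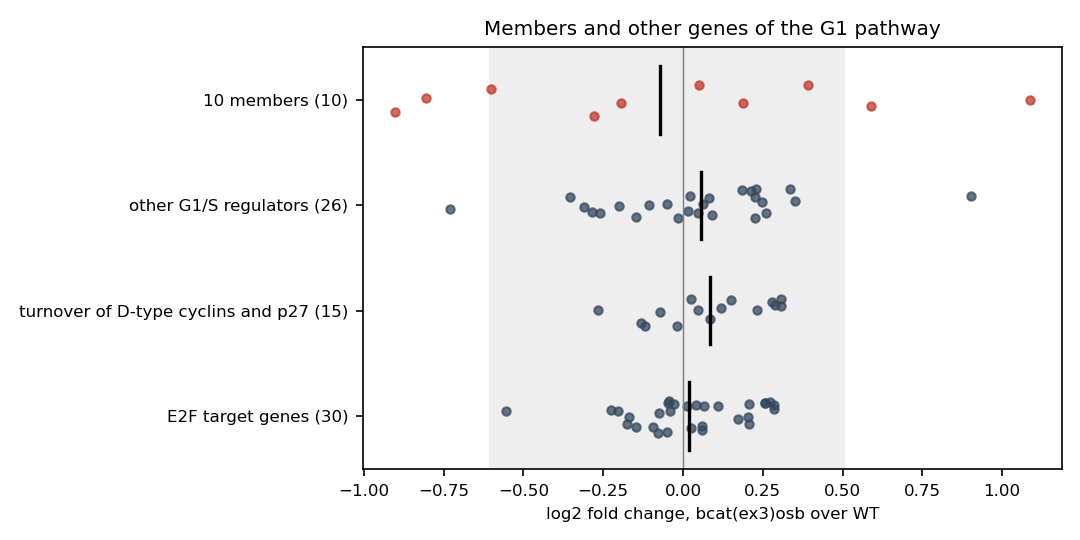
Log2 fold change, bcat(ex3)osb over WT, of the 10 members and of 3 lists of other G1 pathway genes (points, with the number tested), with the median (black line) and the range between the 10th and 90th percentile of all genes tested (grey, -0.61 to 0.50). The 4 medians lie between -0.07 and 0.08, and 4 members lie outside the grey range.

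Genes most like the 2 members with an unadjusted p under 0.05 were sought by Pearson correlation of log2 CPM over the 6 libraries. For Ccnd3 they were Hcls1 (r = 0.983), Zfp934 (r = 0.982) and Mef2c (r = 0.981), a transcription factor of lymphoid and myeloid progenitors. For Ccnd1 they were Cdk5rap3 (r = 0.996), Anxa1 (r = 0.994) and Ugp2 (r = 0.993). These values describe 6 points that share libraries and the length trend, and among 12653 genes the highest r is large by selection.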

How the data were processed

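LSK cell RNA from 6 mice was sequenced as total RNA with a stranded kit, as the labels' protocols give it. Tools named in the submitters' processing notes are STAR 2.5.2b for mm10, featureCounts 1.5.0-p3 and bcl2fastq 2.17. Which strand setting and annotation were used, and how shared reads were treated, is not stated there. Deposited by the authors were raw counts per gene and FPKM with the gene length used.

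Counts were tested with edgeR 4.0.16 (R 4.3.3): filterByExpr (minimum count 10, minimum total 15), TMM scaling, a quasi-likelihood fit on genotype alone, the two-sided F test and Benjamini-Hochberg adjustment over 12653 genes, threshold 0.05. SE came from the F statistic, and 95% intervals from it with the fit's degrees of freedom. For likeness, log2 CPM used a prior count of 1. Alternatives included DESeq2 1.42.0 and limma 3.58.1. The procedure was tested on simulated counts. Intervals and floors cover counting or replicate error only, as PCR reads carry no molecular identifiers. Overlaps with other genes' exons and exon lengths are from GENCODE M21, gene coordinates from RefSeq, both GRCm38.

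Members, lists and tests were chosen with earlier results of these data known. Besides all members, the text names the 4 genes with the smallest unadjusted p per pathway list, and for members at an unadjusted p under 0.05 the 3 most correlated genes.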

Additional observations from a re-analysis of the deposited data

How the results depend on the processing

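In 20 alternative fits 0 members passed an adjusted p under 0.05, also at 0.10 in the fit reported. Ccnd1, Ccnd2, Ccnd3, Cdk6, Cdkn2c and Rb1 kept their sign in all 20, with log2 fold changes from 0.42 to 1.47, 0.18 to 0.61, -1.17 to -0.72, 0.35 to 0.77, -1.52 to -0.30 and -1.33 to -0.46. The smallest adjusted p for Ccnd3 was 0.1001 by DESeq2, and over the alternatives it ran to 1.00. Over all genes, 101 were called higher and 68 lower by DESeq2, 5 and 0 with the mouse number as a replicate block, and 1 and 0 with the length trend removed. Leaving out 1 mouse gave between 0 and 4 genes higher and between 0 and 13 lower: 1 higher and 13 lower without mutant mouse 1, 4 and 2 without mutant mouse 3, and 0 and 0 without any other mouse. Cdk4 turned negative on log2(FPKM + 1) (-0.032), on log2(FPKM + 0.1) (-0.032), with the sex of the mice as a covariate (-0.17) and among the 4 females (-0.19). Cdkn1b turned negative in those fits by sex (-0.24 and -0.26), and Rbl2 turned positive (0.19 and 0.17). Among the 4 females mutant mouse 3 was the only mutant. Leaving out 1 mouse gave log2 fold changes from -0.091 to 0.18 for Cdk4, -0.12 to 0.76 for Cdkn1b and -0.58 to 0.030 for Rbl2, with the other sign without mutant mouse 2 or WT mouse 1, and from -0.37 to 0.038 for Cdkn2d, with the other sign without WT mouse 2. The cause was not tested. The difference in the Cdk6 share was 2.29 percentage points on FPKM and 3.79 on CPM, which is not divided by length. Over the fits that left out 1 mouse, the difference (mutant minus WT, in percentage points) ran from 2.21 to 7.86 for the Ccnd1 share, 14.8 to 18.5 for Ccnd2, -25.6 to -18.0 for Ccnd3 and 1.65 to 3.24 for Cdk6. That of the ratio of inhibitors to kinases ran from -0.0298 to -0.0113. Same-numbered mice had correlations of their deviations of 0.11, 0.34 and 0.06, and 1 of the 3 mutant mice correlated best with its own number, so the numbers were not taken as pairs. Members wholly above the WT mice numbered 1 on the deposited FPKM and 2 on CPM. That count, the fits by sex and those without mouse 2 of each genotype were chosen after seeing the data. The 3 mice per group limit what a test over all genes can call.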
